A study of Mus musculus with 6 samples.

Results

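The 10 transcripts described here are those of the IGF2BP RNA-binding proteins (Igf2bp1, Igf2bp2 and Igf2bp3), of the ligands Igf2 and Igf1, of the receptors Igf1r, Igf2r and Insr, and of the receptor adaptors Irs1 and Irs2. They were chosen by gene symbol and are 10 of the 22564 protein-coding genes in the authors' table, each on a single line. The study sequenced RNA from a culture of mouse germ stem cells kept with the growth factors GDNF and FGF2 (each at 10 ng/ml), in 3 groups of 2 libraries. RNA recovered by an IGF2BP1 antibody (IGF2BP1 RIP) was set beside RNA pulled down with a non-specific antibody (IgG RIP) and RNA of the cells without a pull-down (input). All groups had the same cells and growth factors, and no genotype, age or further treatment is named in the labels. The labels do not say whether replicate libraries stem from different cultures, so the p-values below measure the spread between these libraries only.

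IGF2BP1 and its relatives bind mRNAs through RRM and KH domains and act on their stability, translation and localization. The family takes its name from the mRNA of insulin-like growth factor 2, which it binds. IGF1 and IGF2 act through the receptor tyrosine kinase IGF1R, and in part through the insulin receptor, which pass the signal to the adaptors IRS1 and IRS2 and on to PI3K and AKT. IGF2R has no kinase: it carries proteins tagged with mannose 6-phosphate to lysosomes and removes IGF2 from the cell surface. Igf2 and Igf2r are imprinted in the mouse, with Igf2 read from the paternal and Igf2r from the maternal copy in most tissues.

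The IGF2BP1 RIP libraries held 2793425 and 2836942 fragments on protein-coding genes, the IgG RIP libraries 2558673 and 2723451, and the input libraries 1639251 and 1693165. The IgG libraries stood apart from each other: the biological coefficient of variation was 7.76% for IGF2BP1 RIP, 49.7% for IgG RIP and 6.76% for input. Levels are given as CPM, a share of the fragments of a library after TMM scaling, so the amount of RNA pulled down was not compared. Fewer cells of a type and less RNA per cell cannot be told apart in such bulk libraries. Differences are log2 fold changes ± SE from edgeR's quasi-likelihood test, with p-values adjusted by the Benjamini-Hochberg method over all 12053 genes tested, and a gene is called when its adjusted p is under 0.05. The test with all 3 groups in the model (the 3-group test) averages the unlike spreads to 25.2%, so the result of a model holding only the 2 groups compared (the 2-group test) is given beside it. Where 1 IgG library is left out, the lone IgG library is assumed to vary as little as the other groups. That fit called many more of all genes in IGF2BP1 RIP against IgG RIP than the fit with both IgG libraries did, so its calls are not taken as support. Its values are given as fold changes, and where its calls are counted below, those of all genes are counted too.

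All 15 germ cell markers had fragments in every library, with a summed level of 4133 and 4244 CPM with the IGF2BP1 antibody, 3621 and 3523 CPM with IgG, and 3924 and 3756 CPM in input. Markers of other cells were present too. The 12 macrophage and blood markers in the table summed to 3597 to 3713 CPM with the IGF2BP1 antibody, 3325 to 3730 CPM with IgG and 3856 to 3895 CPM in input. Most of these sums was Lyz2, at 2844 and 2744 CPM with the IGF2BP1 antibody, 2452 and 2929 CPM with IgG, and 3137 and 3123 CPM in input. Of the 12, 10 to 12 had a fragment in a given library. The 16 fibroblast and feeder markers summed to 4715 to 4907 CPM with the IGF2BP1 antibody, 4546 to 5141 CPM with IgG and 4663 to 4758 CPM in input. The 13 Sertoli and Leydig markers summed to 36.7 to 56.7 CPM over the 6 libraries, and 5 of them, Amh, Fshr, Cldn11, Cyp11a1 and Cyp17a1, had 0 fragments in every library. Which of these cells the 10 transcripts came from was not tested.

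All 10 transcripts were detected in each library and passed the filter on low counts. Per unit of transcript length, on the authors' FPKM scale, the levels in input ran from Igf2 at 114 and 107 FPKM down to Irs1 at 0.427 and 0.468 FPKM. Below Igf2 came Igf2bp1 (49.98 and 32.0 FPKM), Igf1 (31.4 and 35.6), Igf1r (31.7 and 34.0) and Igf2r (23.8 and 32.4), whose ranges overlap, so no order is given among these 4. Igf2bp2 followed at 10.9 and 14.1 FPKM, Irs2 at 5.98 and 6.15 FPKM, Igf2bp3 at 4.60 and 4.41 FPKM and Insr at 0.865 and 1.42 FPKM, each apart from its neighbours in both libraries. Thus the transcript of the pulled-down protein was the most abundant of its family in the input RNA of the whole culture. The transcript of the IGF type 1 receptor exceeded that of the insulin receptor in both input libraries.

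**Figure D1:**
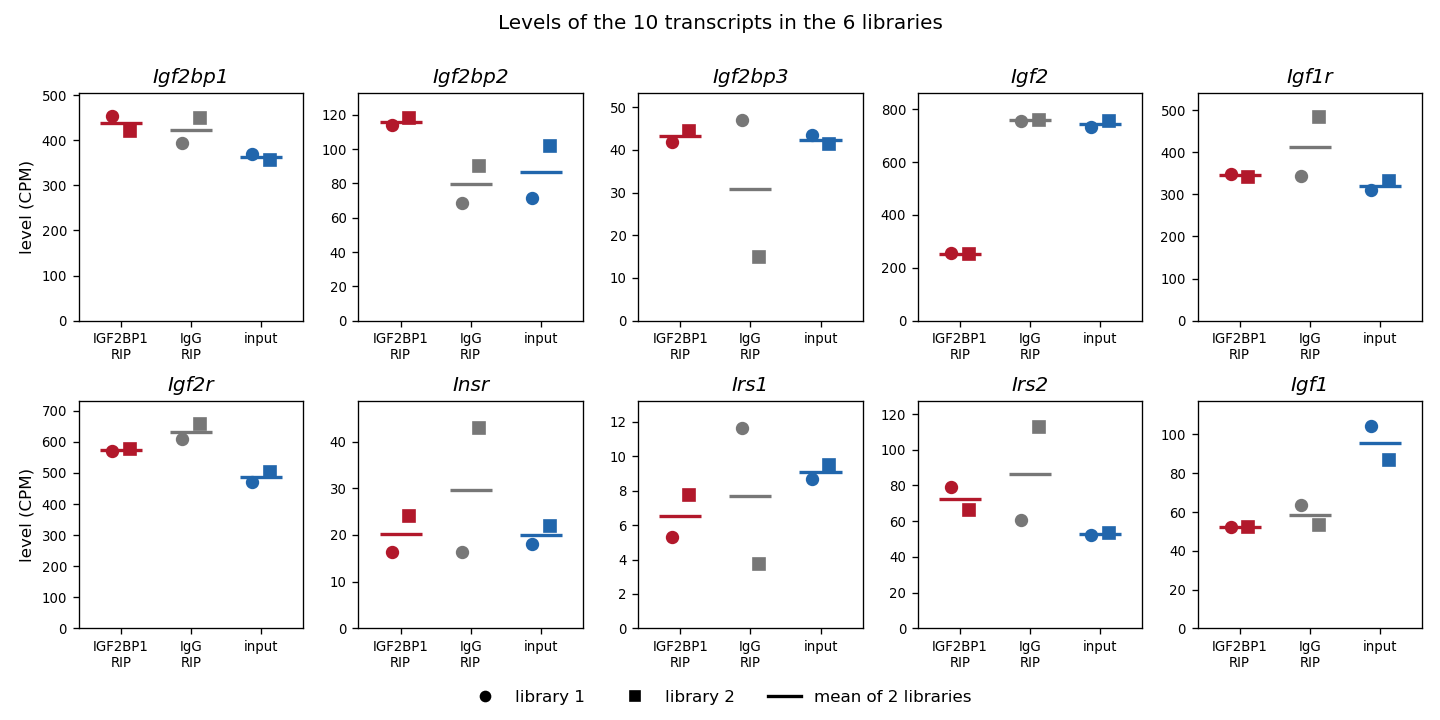
Level (CPM, linear axis from 0) of each of the 10 transcripts in the 6 libraries, with IGF2BP1 RIP in red, IgG RIP in grey and input in blue. Circles and squares are the libraries 1 and 2 and the bar is their mean. Igf2 lies near 253 CPM with the IGF2BP1 antibody, against 757 CPM with IgG and 743 CPM in input, and the IgG libraries differ from each other for Igf2bp3, Insr, Irs1 and Irs2.

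The calls in the comparisons of IGF2BP1 RIP fell on the ligand transcripts. Igf2 (ENSMUSG00000048583, minus strand, GRCm38 chromosome 7, 142650766 to 142670356) stood at 256.4 and 250.4 CPM with the IGF2BP1 antibody, 756.3 and 758.1 CPM with IgG, and 731.2 and 755.8 CPM in input. Both IGF2BP1 libraries lie far below all 4 others, and the 4 others differ little among themselves. With means of 253 ± 4.31, 757 ± 1.28 and 743 ± 17.4 CPM (SD, n = 2 each), Igf2 stood in IGF2BP1 RIP at 33.5% of its mean level in IgG RIP and at 34.1% of that in input. On the log2 scale IGF2BP1 RIP differed by -1.58 ± 0.07 from IgG RIP (adjusted p = 4.27e-04, edgeR) and by -1.55 ± 0.08 from input (adjusted p = 2.07e-04), with 95% intervals of -1.75 to -1.40 and -1.73 to -1.38. By p-value it ranked 2 among the 12053 genes against IgG RIP and 5 against input. By fold change it was less extreme, as 3.19% of these genes lay lower than Igf2 against IgG RIP and 2.12% against input. The 2-group test called it as well, with an adjusted p of 0.0115 and 4.15e-14.

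In the non-specific pull-down the share of Igf2 was near that of input. IgG RIP stood at 102% of input, a log2 fold change of 0.03 ± 0.07 (adjusted p = 0.860, edgeR) with a 95% interval of -0.14 to 0.20. That interval does not reach the values of IGF2BP1 RIP against input. The Igf2 libraries of IgG RIP also agreed closely with each other, with a ratio of higher to lower of 1.00, although over all genes the median difference between the IgG libraries was 0.51 on the log2 scale. Leaving out any 1 of the 6 libraries kept the fold change of Igf2 between -1.60 and -1.56 over IgG RIP and between -1.58 and -1.52 over input. On the authors' FPKM, where a limma test was used, the difference was -1.01 over IgG RIP (adjusted p = 0.126) and -0.53 over input (adjusted p = 0.169), where the median over all genes was 0.13 and 0.74. After centring each library on its median it was -1.05 over IgG RIP (adjusted p = 0.129) and -1.29 over input (adjusted p = 0.232). None of these was called.

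Igf1 (ENSMUSG00000020053, plus strand, chromosome 10, 87826377 to 87937042) behaved otherwise, with a low share in both kinds of pull-down. Its level was 52.3 and 52.3 CPM with the IGF2BP1 antibody, 63.6 and 53.1 CPM with IgG, and 104.2 and 87.1 CPM in input. Both pull-downs lie below input without overlap, at 54.7% of it for IGF2BP1 RIP and 61.0% for IgG RIP, and the pull-downs lie close to each other. Against input IGF2BP1 RIP had a log2 fold change of -0.87 ± 0.19 (adjusted p = 0.0441 in the 3-group test and 2.54e-05 in the 2-group test, edgeR). That of IgG RIP was -0.71 ± 0.19 (adjusted p = 0.0623 and 0.160), which was not called. It was -0.84 without IgG library 1 and -0.59 without IgG library 2. Between the pull-downs the difference was -0.16 ± 0.19 (adjusted p = 0.663), with a 95% interval of -0.61 to 0.29.

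The call of Igf1 against input in the 3-group test was close to the threshold. It was lost without either IGF2BP1 library and without either input library, while the fold change stayed between -0.99 and -0.74. Such a fit leaves 1 library in that group, and the IgG libraries then weigh more in the spread of every gene. The loss can therefore not be read as particular to Igf1. In the FPKM columns, which are not scaled to depth, the same gene gave 0.15 over input (adjusted p = 0.799, limma), where the median over all genes was 0.74, and -0.61 (adjusted p = 0.595) after each library was centred on its median. The levels of Igf1 in IGF2BP1 RIP and input were 38.1 and 36.4 FPKM against 31.4 and 35.6 FPKM.

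**Figure D2:**
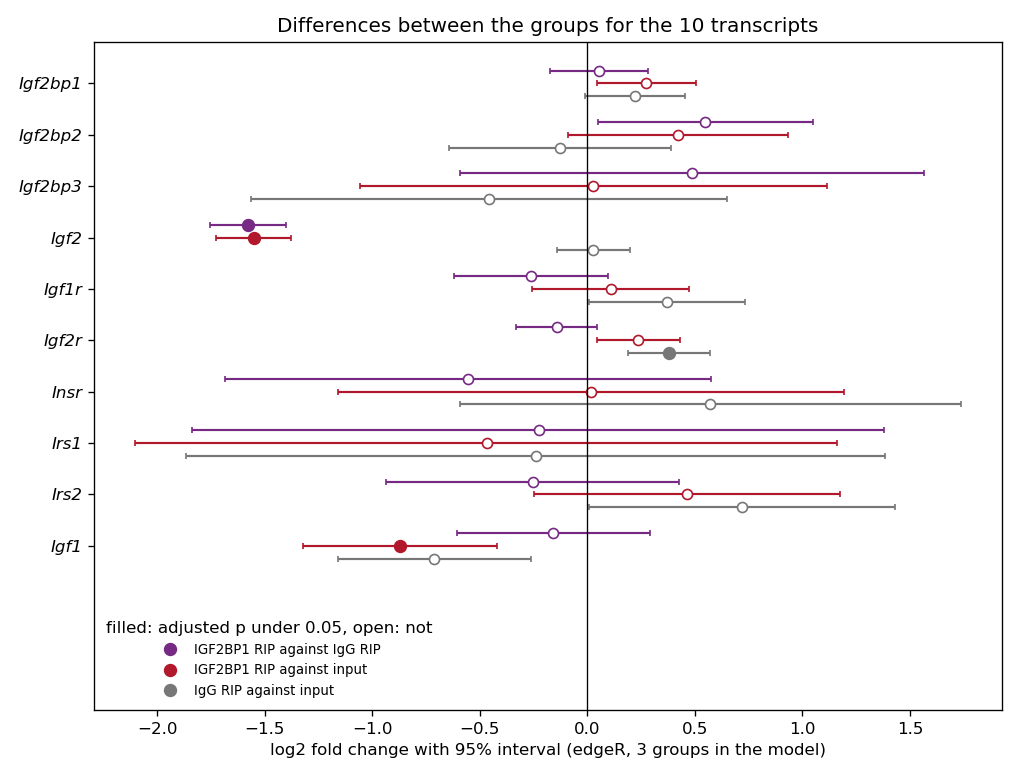
Log2 fold change (edgeR, 3 groups in the model) of each transcript with its 95% interval, for IGF2BP1 RIP against IgG RIP (purple), IGF2BP1 RIP against input (red) and IgG RIP against input (grey). Filled points have an adjusted p under 0.05. Igf2 lies at -1.58 and -1.55 in the comparisons of IGF2BP1 RIP and at 0.03 in IgG RIP against input.

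The receptors with a high level gave small differences. Igf2r (ENSMUSG00000023830, minus strand, chromosome 17, 12682406 to 12868143) stood at 569.4 and 575.6 CPM with the IGF2BP1 antibody, 608.0 and 656.8 CPM with IgG, and 470.1 and 501.7 CPM in input. Each group lies apart from the others, with input lowest and IgG RIP highest. IGF2BP1 RIP was at 118% of input (log2 fold change 0.24 ± 0.08, edgeR adjusted p = 0.151 in the 3-group test and 0.00998 in the 2-group test), and IgG RIP at 130% of input (0.38 ± 0.08, adjusted p = 0.0327 and 0.0930). Igf2r is the 1 transcript of the 10 called in IgG RIP against input by the 3-group test. The call was lost without either IGF2BP1 library or either input library. With 1 library left out, the fold change in IgG RIP against input stayed between 0.32 and 0.45. Without an IGF2BP1 or input library the IgG libraries weigh more in the spread of every gene, so the loss can not be read as particular to Igf2r. Against IgG RIP the difference was -0.14 ± 0.08 (adjusted p = 0.319, interval -0.33 to 0.05), with -0.20 without IgG library 1 and -0.09 without IgG library 2.

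The locus span that the authors give Igf2r is 185.738 kb long, against 87.301 kb in the RefSeq annotation of GRCm38, and it is shared with Mas1. Mas1 had 0 fragments in the pull-downs and 1 in each input library, against 758 to 1757 for Igf2r, so few fragments on that span were given to the other gene.

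Igf1r (ENSMUSG00000005533, plus strand, chromosome 7, 67952859 to 68226780) stood at 348.9 and 341.8 CPM with the IGF2BP1 antibody, 344.2 and 483.7 CPM with IgG, and 309.5 and 331.1 CPM in input. IgG library 2 lies above the other 5, which span a narrow range. The fold change of IGF2BP1 RIP was -0.26 ± 0.15 over IgG RIP (adjusted p = 0.339, edgeR) and 0.11 ± 0.16 over input (adjusted p = 0.779, and 0.277 in the 2-group test). The interval over input, -0.26 to 0.47, excludes a change of the size seen for Igf2. Without IgG library 1 the difference from IgG RIP was -0.49, and without IgG library 2 it was 0.00494.

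The insulin receptor transcript Insr (ENSMUSG00000005534, minus strand, chromosome 8, 3150922 to 3279617) was scarce, with 29 to 115 fragments a library. Its level was 16.4 and 24.0 CPM with the IGF2BP1 antibody, 16.3 and 43.0 CPM with IgG, and 18.0 and 21.9 CPM in input. All groups overlap, and IgG library 2 is again the highest. The fold change of IGF2BP1 RIP was -0.55 ± 0.48 over IgG RIP (adjusted p = 0.528, edgeR) and 0.02 ± 0.50 over input (adjusted p = 0.994), with a 95% interval over input from -1.16 to 1.19. Changes within that interval could not be told from 0 for Insr. Over IgG RIP the value was -1.09 without IgG library 1 and 0.31 without IgG library 2.

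Of the adaptors, Irs2 (ENSMUSG00000038894, minus strand, chromosome 8, 10986980 to 11054541) had larger values in all 4 pull-down libraries than in either input library. It stood at 79.3 and 66.0 CPM with the IGF2BP1 antibody, 60.5 and 112.9 CPM with IgG, and 52.1 and 53.3 CPM in input. The IgG libraries lie on either side of the IGF2BP1 libraries. The fold change of IGF2BP1 RIP over input was 0.46 ± 0.30 (edgeR adjusted p = 0.469 in the 3-group test and 0.0195 in the 2-group test), and that of IgG RIP over input was 0.72 ± 0.30 (adjusted p = 0.184 and 0.288). Over IgG RIP, Irs2 was -0.26 ± 0.29 (adjusted p = 0.638), with -0.63 without IgG library 1 and 0.26 without IgG library 2.

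Irs1 (ENSMUSG00000055980, minus strand, chromosome 1, 82233101 to 82291416) was the scarcest of the 10, with 10 to 30 fragments a library. Its level was 5.34 and 7.77 CPM with the IGF2BP1 antibody, 11.6 and 3.74 CPM with IgG, and 8.68 and 9.48 CPM in input. The IgG libraries hold both the highest and the lowest value. None of the comparisons called it in edgeR (adjusted p = 0.873 over IgG RIP and 0.789 over input for IGF2BP1 RIP), and the interval over input ran from -2.10 to 1.16. Its span is shared with Gm9747, which had 1 fragment in all 6 libraries together.

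**Figure D3:**
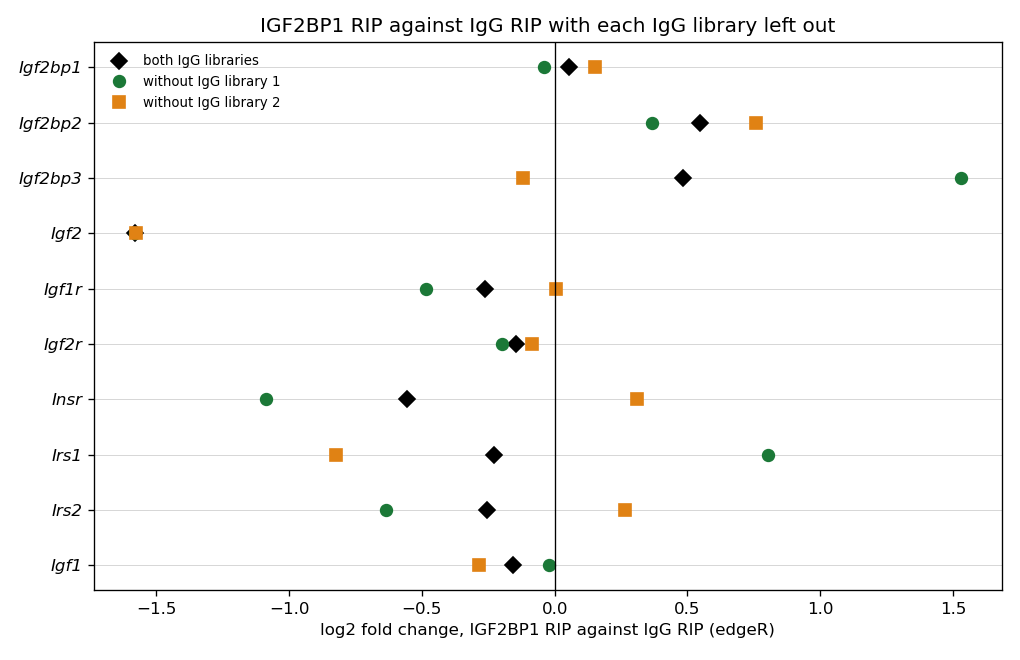
Log2 fold change of IGF2BP1 RIP against IgG RIP (edgeR) for each transcript with both IgG libraries (black diamonds), without IgG library 1 (green circles) and without IgG library 2 (orange squares). The 3 values of Igf2 coincide near -1.58, whereas Igf2bp3 spans -0.12 to 1.53 and Insr -1.09 to 0.31.

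The IGF2BP transcripts themselves gave no call in the 3-group test in any comparison. Igf2bp1 (ENSMUSG00000013415, minus strand, chromosome 11, 95957163 to 96005940) stood at 454.6 and 421.6 CPM with the IGF2BP1 antibody, 394.6 and 450.1 CPM with IgG, and 369.6 and 355.4 CPM in input. The pull-downs overlap, and both lie above input. Its mean level in IGF2BP1 RIP was 104% of that in IgG RIP and 121% of that in input. IgG RIP was at 117% of input, a fold change of 0.22 ± 0.10 (adjusted p = 0.206, edgeR), next to 0.27 ± 0.10 for IGF2BP1 RIP over input (adjusted p = 0.166, and 0.00489 in the 2-group test). Between the pull-downs the difference on fragments was 0.05 ± 0.10, with an interval of -0.17 to 0.28, and its direction turned without IGF2BP1 library 1 (-0.00599) and without IgG library 1 (-0.038). On FPKM the levels were 110 and 97.0 with the IGF2BP1 antibody and 50.8 and 74.9 with IgG, a difference of 0.74 (adjusted p = 0.263, limma), and 0.70 after centring (adjusted p = 0.294).

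Igf2bp2 (ENSMUSG00000033581, minus strand, chromosome 16, 22059009 to 22163299) stood at 113.8 and 118.3 CPM with the IGF2BP1 antibody, 68.7 and 90.1 CPM with IgG, and 71.3 and 101.9 CPM in input. Both IGF2BP1 libraries lie above the other 4. The fold change was 0.55 ± 0.21 over IgG RIP (edgeR adjusted p = 0.167, interval 0.05 to 1.05) and 0.42 ± 0.22 over input (adjusted p = 0.338, and 0.0152 in the 2-group test). Over IgG RIP the 2-group test gave an adjusted p of 0.227, and the fold change was 0.37 without IgG library 1 and 0.76 without IgG library 2. Among the 10 transcripts it is the one that lay higher in IGF2BP1 RIP than in each control without overlap. A lack of overlap, in either direction, held for 52.0% of all genes against IgG RIP and 66.8% against input. The share of all genes that lay above both controls was not computed.

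Igf2bp3 (ENSMUSG00000029814, minus strand, chromosome 6, 49073795 to 49214954) stood at 42.0 and 44.5 CPM with the IGF2BP1 antibody, 47.0 and 15.0 CPM with IgG, and 43.4 and 41.5 CPM in input. Of the 6 libraries, 5 agree within a narrow range and IgG library 2 is the low one. Its span is shared with Malsu1, a gene of mitochondrial ribosome assembly, which had 54 and 49 fragments with the IGF2BP1 antibody, 102 and 23 with IgG, and 48 and 62 in input. Fragments of both genes were therefore low in IgG library 2, and the share that was assigned to the wrong gene of the pair was not tested. The fold change of Igf2bp3 over IgG RIP was 0.48 ± 0.46 (adjusted p = 0.568, edgeR), with 1.53 without IgG library 1 and -0.12 without IgG library 2. Over input it was 0.03 ± 0.46 (adjusted p = 0.986).

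Counted together, of the 10 transcripts 0 were called higher and 1 lower for IGF2BP1 RIP over IgG RIP by edgeR's 3-group test, where 7.07% of all genes tested were called, 3.29% as higher and 3.78% as lower. At an unadjusted p under 0.05 there were 1 higher and 1 lower, and DESeq2 called 0 and 1. The 2-group test called 0 and 1 as well, where it called 1.23% of all genes. Against input, 0 were called higher and 2 lower, where 5.97% of all genes were called, 2.21% as higher and 3.76% as lower. At an unadjusted p under 0.05 these were 2 and 2, and DESeq2 called 0 and 2. In the 2-group test 4 were higher (Igf2bp1, Igf2bp2, Igf2r and Irs2) and 2 lower (Igf2 and Igf1) than in input, where that test called 36.1% of all genes. Without IgG library 1 or without IgG library 2, the 3-group model also called 4 higher and 2 lower, where it called 34.0% of all genes in either case. For IgG RIP against input 1 was higher and 0 lower, where 9.09% of all genes were called, 4.19% as higher and 4.90% as lower, with 3 and 1 at an unadjusted p under 0.05, 1 and 0 in DESeq2 and 0 and 0 in the 2-group test, which called 2.29% of all genes.

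The groups did not overlap for 4 of the 10 transcripts between IGF2BP1 RIP and IgG RIP, where this held for 52.0% of all genes. Between IGF2BP1 RIP and input this was so for 8 of 10 (66.8% of all genes) and between IgG RIP and input for 6 of 10 (53.8%). These counts are close to the background and show nothing particular to the 10. The median log2 fold change of the 10 was -0.19, 0.07 and 0.12 in the 3 comparisons, beside -0.01, 0.001 and -0.002 over all genes. The comparisons share their control libraries and are not independent of each other. Without IgG library 1, 2 of the 10 were called higher and 5 lower against IgG RIP, and 5 higher and 2 lower in IgG RIP against input, where 47.0% and 46.4% of all genes were called. Without IgG library 2 the counts were 1 and 1 in each of these comparisons, where 44.6% and 43.4% of all genes were called.

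Around these transcripts, 5 lists of genes of the IGF and insulin pathway and of IGF2BP partners were examined, with 96 symbols, 87 lines of which passed the filter on low counts. Against IgG RIP, edgeR's 3-group test called 3 of them higher and 1 lower, and against input 3 higher and 4 lower, beside 7.07% and 5.97% of all genes. The 2-group test called 1 higher and 0 lower against IgG RIP (16 and 11 at an unadjusted p under 0.05 in the 3-group test, 3 and 1 in DESeq2), and 27 higher and 13 lower against input, beside 1.23% and 36.1% of all genes. For IgG RIP against input the 3-group test called 6 higher and 10 lower (9.09% of all genes) and the 2-group test 1 and 5 (2.29%). In the 3-group test, the 17 IGF2BP partners gave 2 of the 3 higher calls over IgG RIP. They also gave 6 of the 10 lower calls in IgG RIP against input.

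Of the insulin genes, the IGF binding proteins, which hold IGFs outside cells, and the proteases and inhibitors that act on these, 9 of 15 were tested. None of the 9 was called in any comparison by the 3-group test of edgeR, with 0 higher and 1 lower at an unadjusted p under 0.05 in each comparison of IGF2BP1 RIP, and 0 and 0 in DESeq2. The 2-group test called 0 and 0 over IgG RIP and 1 and 1 over input. Between IgG RIP and input 2 and 1 passed at an unadjusted p under 0.05, and DESeq2 called 1 and 0. Their median was -0.25 over IgG RIP and 0.004 over input. The insulin genes Ins1 and Ins2 and the binding protein gene Igfbp1, named here after their values were seen, had 0 fragments in every library. Of the insulin and IGF ligands, therefore, only Igf2 and Igf1 were detected in these libraries.

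Of 23 receptor-proximal adaptors and phosphatases, 19 were tested. Sh2b3, an adaptor that restrains signalling, was the 1 gene called against input, at 166 ± 0.401 CPM in IGF2BP1 RIP and 100 ± 6.60 CPM in input (SD, n = 2; log2 fold change 0.73, edgeR adjusted p = 0.0236), and it shares its span with another gene. Against IgG RIP edgeR called 0 and 0 of them (1 and 0 at an unadjusted p under 0.05, 0 and 0 in DESeq2). Their median was 0.15 over IgG RIP and 0.16 over input, and the 2-group test called 6 higher and 0 lower against input.

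The list of receptor processing and mannose 6-phosphate sorting had 16 tested lines for 15 symbols, as Ap1g1 is listed on 2 lines. The retromer subunit Vps35 was lower with the IGF2BP1 antibody than with IgG, at 96.0 ± 9.53 against 163 ± 7.01 CPM (log2 fold change -0.77, edgeR adjusted p = 0.0285). M6pr, the smaller mannose 6-phosphate receptor, which shares the sorting role of Igf2r and does not bind IGF2, was higher, at 251 ± 5.48 against 185 ± 5.43 CPM (0.44, adjusted p = 0.0372). In both cases the IGF2BP1 libraries were near input (101 ± 13.1 CPM for Vps35 and 252 ± 4.75 CPM for M6pr), and IgG RIP was called apart from input (0.69 for Vps35 and -0.44 for M6pr). Also called in IgG RIP against input were the sorting adaptor Gga3 (1.22) and the retromer subunit Vps26a (-0.62), whose spans are shared with other genes. The 2-group test called neither Vps35 nor M6pr over IgG RIP (adjusted p = 0.0887 and 0.132), and none of this list in IgG RIP against input (0.0574 for Gga3, 0.0978 for Vps26a, 0.0898 for Vps35 and 0.125 for M6pr). Over IgG RIP, 7 were higher and 2 lower at an unadjusted p under 0.05 in the 3-group test, for which no share of all genes was computed. DESeq2 called 0 higher and 1 lower there, so it did not call M6pr. Over input the 3-group test called 0 and 0 and the 2-group test 6 higher and 1 lower.

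Of 26 PI3K, AKT and FOXO genes, all tested, IGF2BP1 RIP had 1 higher and 2 lower than input. Tsc2, which restrains mTOR complex 1, stood at 109 ± 0.0571 against 67.2 ± 1.24 CPM (log2 fold change 0.69, edgeR adjusted p = 0.0399). In IgG RIP against input 3 were higher and 2 lower, among them Tsc2 (1.03), Mtor (0.50) and Rheb (-1.05). The 2-group test called 1 and 0 there, with an adjusted p of 0.0494 for Tsc2, 0.0807 for Mtor and 0.0768 for Rheb. Tsc2 was thus called higher than input in both kinds of pull-down. Between the pull-downs edgeR called 0 of the 26 (3 higher and 8 lower at an unadjusted p under 0.05, 1 and 0 in DESeq2, 0 and 0 in the 2-group test). Tsc2 and Mtor each share a span with another gene.

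**Figure D4:**
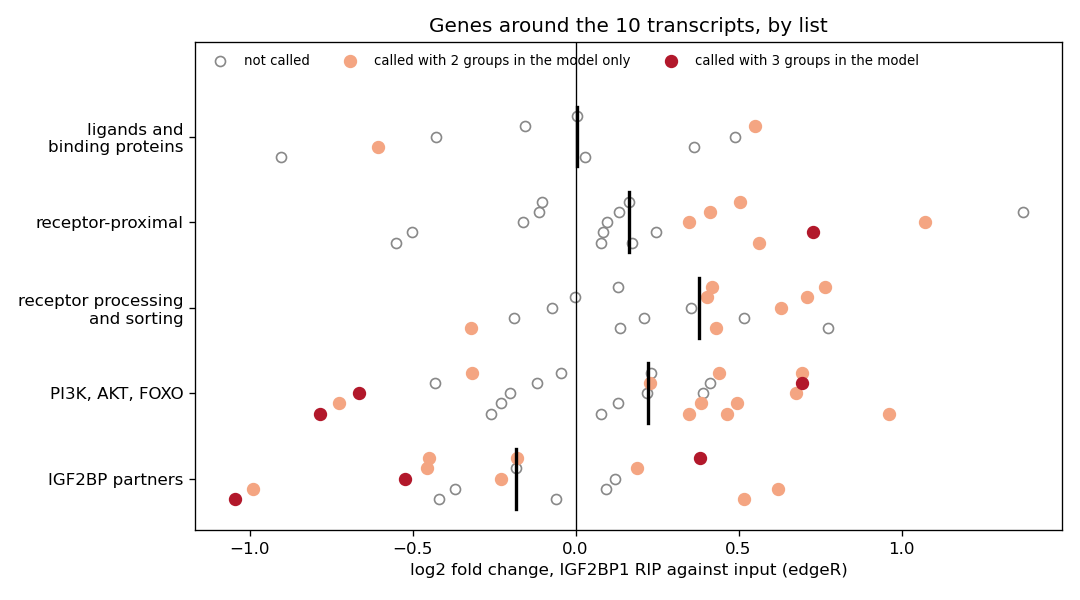
Log2 fold change of IGF2BP1 RIP against input (edgeR) for each tested gene of the 5 lists, with the list median as a vertical bar. Dark red points are called with 3 groups in the model, light points only with 2 groups in the model, and open points by neither. The medians lie at 0.004 for ligands and binding proteins, 0.16 for receptor-proximal genes, 0.38 for receptor processing and sorting, 0.22 for PI3K, AKT and FOXO and -0.18 for IGF2BP partners.

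The last list held 17 transcripts of proteins known to associate with IGF2BPs or their bound mRNAs, all tested. The poly(A)-binding protein gene Pabpc1 was higher in IGF2BP1 RIP than in IgG RIP and input, at 3659 ± 6.25 CPM against 2087 ± 151 CPM with IgG and 2807 ± 7.32 CPM in input (log2 fold changes 0.81 and 0.38, edgeR adjusted p = 0.0011 and 0.0151). The helicase gene Ddx3x was higher than in IgG RIP (0.58, adjusted p = 0.0113, and 0.0672 in the 2-group test), and IgG RIP was itself lower than input (-0.76, adjusted p = 0.00538). Ybx1, which encodes a cold-shock RNA-binding protein, was lower than in input at 609 ± 9.15 against 1258 ± 72.6 CPM (-1.05, adjusted p = 0.00281), and IgG RIP stood at 611 ± 75.7 CPM (-1.04 over input, adjusted p = 0.00344). Syncrip was lower than in input with both the IGF2BP1 antibody (-0.52) and IgG (-0.86), and it shares its span with other genes. Ybx1 and Syncrip follow the pattern of Igf1, low in both pull-downs, and not that of Igf2.

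Genes with a profile over the 6 libraries most like that of a member were found by the mean absolute difference of log2 CPM after centring each gene, among 7618 other genes with a mean of at least 20 CPM. For Igf2 the nearest were Zfp871 (difference 0.10), Ndufa2 (0.10) and 4930447C04Rik (0.10), where the median gene differed by 0.73. Zfp871, for example, stood at 19.9 and 20.1 CPM with the IGF2BP1 antibody, 49.3 and 54.9 CPM with IgG, and 57.1 and 54.5 CPM in input. Nearest to Igf2bp1 were Safb (0.03), Tnrc6b (0.03) and Fkbp4 (0.03). Nearest to Igf1r were Trim25 (0.03), Rnf167 (0.04) and Fbxl6 (0.04), and to Igf2r were Hdlbp (0.03), Bin1 (0.03) and Tprn (0.03). The median gene differed by 0.27 from Igf2bp1, 0.30 from Igf1r and 0.28 from Igf2r. With so many genes and 6 libraries, close profiles are a description only.

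The deposited count and FPKM of a gene did not keep a fixed ratio across libraries, which bears on the members differently. For Igf2bp3, Igf1r, Irs1 and Irs2 the highest ratio was 1.01, 1.01, 1.00 and 1.01 times the lowest. For Igf2bp1 it was 1.73 times, for Igf2bp2 1.79 times, for Igf2 1.69 times, for Insr 2.95 times and for Igf1 3.66 times, and for Igf2r 1.27 times. Over 9427 genes with at least 10 fragments in each library the median was 1.18, and 31.4% of them exceeded 1.5. For Igf1 the ratio was 14.4 in IgG library 1, against 3.94 to 5.45 in the other 5 libraries. IgG library 1 also held the highest ratio for Igf2bp1 (20.5) and Igf2 (15.5) and the lowest for Igf2bp2 (7.28) and Insr (11.6).

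**Figure D5:**
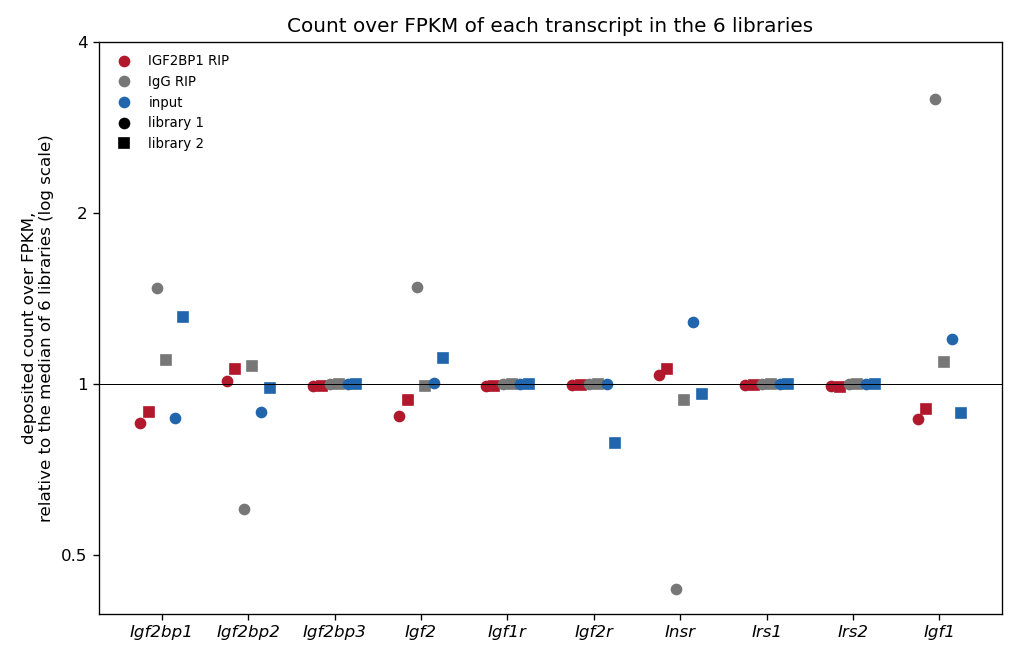
Deposited count over FPKM of each transcript, relative to its median over the 6 libraries (log scale), with IGF2BP1 RIP in red, IgG RIP in grey and input in blue, circles for library 1 and squares for library 2. Igf2bp3, Igf1r, Irs1 and Irs2 stay at 1 in all libraries, while IgG library 1 lies far from 1 for Igf1 and Insr.

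Fold changes on the FPKM scale differed from those on fragments. Igf1 over IgG RIP was 1.04 on FPKM (adjusted p = 0.241, limma) and -0.16 on fragments, and Igf2bp1 over input was 1.36 on FPKM (adjusted p = 0.0439) and 0.27 on fragments. The FPKM values move with depth: over all tested genes the median FPKM difference of IGF2BP1 RIP over input was 0.74. After each library was centred on its median, Igf2bp1 over input stood at 0.59 (adjusted p = 0.496, limma). For Irs2, whose ratio was constant, the centred FPKM value over input was 0.44, beside 0.46 on fragments.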

How the data were processed

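RNA immunoprecipitation libraries (150 bp paired ends, per the labels) were read from 1 table that gives each library a count and an FPKM. The deposited counts were read as estimated counts of fragments scaled by 1 factor per library, from the values themselves: 92.8% to 94.4% of values above 0 are whole multiples of a step between 0.954 and 1.03, within a tolerance of 0.01. Each count was divided by its step and rounded. The deposited FPKM values are the authors' own, are not scaled to depth, and served for levels per length and for alternatives (log2 of FPKM + 0.5). The build mm39, cutadapt 1.9.3 and FastQC are named in the submitters' processing notes. What aligned and counted the reads, and whether by strand, is not given in the sources used here. Among 20874 genes matched by number to RefSeq's GRCm38, 99.909% overlap their position there, so coordinates are printed as GRCm38. The start in the table counts from 0 and was raised by 1. Exons and transcripts were not used here.

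Fits used R 4.3.3, edgeR 4.0.16 (filterByExpr with a minimum count of 10, TMM, glmQLFit), limma 3.58.1 and DESeq2 1.42.0, on all genes, with 3 residual degrees of freedom. The edgeR step was tested on simulated data with a common spread for all groups. That run cannot tell how the step behaves with the unlike spreads seen here. Members and lists were chosen with earlier results of these data known, so the lists are not independent evidence. Besides the members, up to 4 called genes of each list and comparison (smallest adjusted p) and the 3 nearest profiles of 4 members were named. Some genes that this rule would name are not reported here. Same-numbered libraries showed no shared deviation (correlation -0.004 to 0.009 over genes), and the main test used no pairing. Whether they stem from the same culture is not named in the labels, and this correlation cannot settle it. No explanation was weighed.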

Additional observations from a re-analysis of the deposited data

How the results depend on the processing

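Each of the 30 fold changes (10 transcripts, 3 comparisons) was recomputed under up to 16 other settings, 477 values in all, of which 391 kept direction and side of the threshold. Another 36 became called, 18 lost a call and 32 turned direction, none of the 32 being called. The cause of these shifts was not tested. A fit with fewer libraries has fewer degrees of freedom, and the FPKM columns are not scaled to depth. With no library left out of a group, Igf2 kept its call in both comparisons of IGF2BP1 RIP except on FPKM and centred FPKM. Members called numbered 1 over IgG RIP, 2 over input and 1 in IgG RIP against input. On FPKM they were 0, 4 and 2, and on centred FPKM 0, 0 and 0. With only the 2 groups compared they were 6 over input and 0 in IgG RIP against input, and with limma voom weights by group 6 over input. The replicate block and the lack of a filter on low counts each left 1 over input. Leaving out 1 library gave 1 to 7 over IgG RIP, 1 to 6 over input and 0 to 7 in IgG RIP against input.

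All genes called numbered 852, 719 and 1096. With only the 2 groups compared they were 144, 4094 and 261, on FPKM 13, 2871 and 2593, and on centred FPKM 13, 0 and 18, and voom weights gave 4146 over input. Of the FPKM calls 2819 were higher and 52 lower over input, against 266 and 453 on fragments, and 2447 and 146 in IgG RIP against input, against 505 and 591. Over IgG RIP the split was 12 and 1 on FPKM, against 396 and 456. On centred FPKM it was 12 and 1 over IgG RIP and 0 and 18 in IgG RIP against input. With the 2 groups alone the split over IgG RIP was 37 and 107, and with voom weights 226 and 506. In IgG RIP against input voom weights gave 542 and 398. Leaving out 1 library gave 46 to 5661, 16 to 4100 and 0 to 5590. With the replicate block 595, 545 and 823 genes were called, of which 253 were higher and 342 lower over IgG RIP, against 396 and 456 without it.

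Values that turned were, over IgG RIP on FPKM, Igf2r at 0.00579, Irs1 at 0.00364 and Igf1 at 1.04, with Igf1 at 0.996 on centred FPKM. Over input, Insr was -0.0061 with the replicate block, -0.014 with voom weights and -0.11 on centred FPKM, and on FPKM Irs1 was 0.16 and Igf1 0.15. In IgG RIP against input, Igf2bp2 was 0.74 and 0.013 on FPKM and centred FPKM, Igf2bp1 -0.11 and Igf2 -0.24 on centred FPKM, and Igf2bp3 0.00538 and Irs1 0.16 on FPKM. With 1 library left out, values over IgG RIP ran from -0.038 to 0.15 for Igf2bp1, -0.12 to 1.53 for Igf2bp3, -0.49 to 0.00494 for Igf1r, -1.09 to 0.31 for Insr, -0.82 to 0.80 for Irs1 and -0.63 to 0.26 for Irs2. Over input they ran from -0.00598 to 0.080 for Igf2bp3 and -0.27 to 0.28 for Insr. In IgG RIP against input they ran from -0.36 to 0.15 for Igf2bp2, -1.49 to 0.15 for Igf2bp3, -0.29 to 1.11 for Insr and -1.26 to 0.36 for Irs1. The stricter filter on low counts removed Irs1.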
